A study of Homo sapiens with 12 samples.

Results

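Transfer RNA (tRNA) genes are short genes read by RNA polymerase III, and 311 of the ATAC-seq summits called in HT1080 cells lay at one of them. A summit counted where it was within 500 bp of a nuclear gene that the RefSeq annotation of GRCh38 gives the biotype tRNA, on chromosomes 1 to 22 and in a called interval of at most 10 kb. The 311 summits lay in 268 intervals and were 0.295% of the 105599 summits that met the chromosome and length limits, in a list of 188019. Counted by gene, 325 of 425 tRNA genes (76.5%, exact 95% Clopper-Pearson interval 72.1% to 80.4%, counting error only) had a summit and are called open, and 100 had none and are called closed. This share is also the background for each class of tRNA genes described in the text.

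HT1080 is an established human fibrosarcoma line. The libraries compared cells that migrated for 48 h in rat tail type I collagen at 0.3 mg/mL (low), 1 mg/mL (medium) or 1.7 mg/mL (high), with 4 libraries at each concentration and 12 in all. Every group also was kept with GM6001 at 20 μM, which blocks matrix metalloproteinases broadly, and no group without the inhibitor or outside collagen is among the 12. The labels do not say whether the 4 libraries of a concentration came from separate cultures. ATAC-seq cuts accessible DNA with a transposase, and a summit marks a position where the overlapping fragments or reads peaked. The values came from 1 peak list for the whole series, which holds no column for a library or a concentration. All values therefore describe the 3 concentrations together, with no replicate spread and no test, and a weak summit in few libraries and a weak summit in all of them cannot be told apart.

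A tRNA carries an amino acid to the ribosome and reads a codon with its anticodon. Most tRNA genes are transcribed from promoter elements inside the gene, the A box and the B box, which the factor TFIIIC binds. TFIIIB, placed upstream of the start, then recruits RNA polymerase III. Transcription ends at a run of T. The selenocysteine tRNA is an exception, since its transcription depends on elements upstream of the gene. Human tRNA genes lie largely in clusters, the largest of them on chromosome 6 near histone genes, and many exist as copies with the same mature sequence. Symbols give the amino acid letter, the anticodon, the number of the isodecoder (1 mature sequence) and the copy, so TRH-GTG1-9 is copy 9 of histidine isodecoder GTG1.

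Sequence was read for the 14 tRNA genes that lie whole, with 20 bases on either side, inside a promoter window of another gene in RefSeq (GRCh38.p14), and 7 of them are printed because they show strong, weak, closed and duplicated genes. Capitals mark the B box motif, and each sequence runs 5′ to 3′ on the strand on which that motif reads. TRI-TAT2-2 (chr6:27020326-27020459 with flanks) had the highest enrichment of all, TRR-ACG2-1 (chr3:45688979-45689091) was among the highest, and TRA-AGC2-2 (chr6:28863665-28863776) was closed. TRH-GTG1-3 (chr1:148281345-148281456) and TRH-GTG1-9 (chr15:45201131-45201242) are histidine genes of identical sequence, as are the proline genes TRP-TGG3-2 (chr14:20683996-20684107) and TRP-TGG3-5 (chr16:3188074-3188185), and only their flanks differ.
TRI-TAT2-2: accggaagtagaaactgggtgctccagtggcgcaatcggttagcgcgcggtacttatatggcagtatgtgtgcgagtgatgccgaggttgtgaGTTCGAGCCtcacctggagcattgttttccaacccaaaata
TRR-ACG2-1: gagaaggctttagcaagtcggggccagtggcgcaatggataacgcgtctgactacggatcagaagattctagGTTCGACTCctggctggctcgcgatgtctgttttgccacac
TRA-AGC2-2: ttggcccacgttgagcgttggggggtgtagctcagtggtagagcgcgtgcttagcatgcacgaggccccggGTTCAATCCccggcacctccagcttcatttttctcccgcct
TRH-GTG1-3: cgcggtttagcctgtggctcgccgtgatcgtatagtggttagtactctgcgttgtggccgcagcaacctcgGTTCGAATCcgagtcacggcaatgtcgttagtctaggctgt
TRH-GTG1-9: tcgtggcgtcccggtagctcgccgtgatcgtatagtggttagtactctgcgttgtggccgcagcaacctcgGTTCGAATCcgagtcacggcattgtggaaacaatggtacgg
TRP-TGG3-2: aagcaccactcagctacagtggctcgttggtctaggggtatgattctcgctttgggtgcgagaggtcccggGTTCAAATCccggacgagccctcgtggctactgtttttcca
TRP-TGG3-5: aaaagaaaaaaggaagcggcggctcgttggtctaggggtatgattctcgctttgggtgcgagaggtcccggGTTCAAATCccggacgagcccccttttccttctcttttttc

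The motif GTTCNANNC, searched on both strands, was present in 14 of the 14 genes, the closed one included, and in 7.49% of 34943 promoter windows, which are longer than a tRNA gene. Its narrower form GTTCGANNC, whose matches all also fit the first motif, was in 10 of the 14 genes and in 0.833% of the windows. A run of TTTT, searched on the strand of the gene, was in the 20 bases after the gene in 11 of 14, against 8.14% for the first 20 bases of the windows. The histidine pair was among the 3 genes without such a run in that stretch. A match describes the letters only, and the closed gene TRA-AGC2-2 carried both the motif GTTCNANNC and the run of T.

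Identical gene bodies had unequal summits. TRH-GTG1-3 had a summit 55 bases beyond its 3′ end with an enrichment of 10.4-fold and a pileup of 1192, whereas the summit inside TRH-GTG1-9 had 2.00-fold and a pileup of 414. Enrichment is the fold over the local background that the authors' peak caller used, and pileup is the number of overlapping fragments or reads at the summit, recovered from the deposited values. TRP-TGG3-2 had 5.202-fold and a pileup of 963 with its summit 110 bases beyond the 3′ end, and TRP-TGG3-5 had 3.74-fold and 547 with its summit 77 bases upstream. An end of a coding gene lay 35 bp from TRH-GTG1-9, 90 bp from TRP-TGG3-2 and 39 bp from TRP-TGG3-5. The nearest one to TRH-GTG1-3 was 129084 bp away. Whether a summit belonged to the tRNA gene or to the coding gene was not tested. Over the 13 open genes with sequence, the strongest summit lay upstream of the gene in 5, beyond its 3′ end in 6 and inside it in 2. The summit of TRI-TAT2-2 was 98 bases upstream and that of TRR-ACG2-1 167 bases upstream. TRR-ACG2-1 lay 325 bp from an end of the coding gene SACM1L.

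The open share of tRNA genes lay in the range of coding genes and above that of other short genes. With the same window, 8.28% of 6192 other genes of at most 200 bp were open, 5.24% of 1144 small nucleolar RNA genes, 13.9% of 1793 microRNA genes and 47.9% of 146 small nuclear RNA genes. Of 86 tRNA pseudogenes, 9 (10.5%) were open. Of 19 nuclear pseudogenes of mitochondrial tRNAs, 3 (15.8%) were open. A summit lay within 500 bp of either end of 59.4% of 18973 coding genes, and within 500 bp of the body of 82.7%. Only 54 tRNA genes lay within 1000 bp of the end of a coding gene, and 49 of them were open (90.7%). Among the other 371 the share was 276 (74.4%), so most open tRNA genes were far from a coding gene end. Of the 311 summits, 26 (8.36%) were themselves within 500 bp of one.

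The summits at tRNA genes were stronger than most of the list in pileup and to a lesser degree in enrichment. Their median enrichment was 7.45-fold (quartiles 4.06 and 10.9, range 1.54 to 17.1), against 3.89-fold over all 105599 summits and 11.0-fold over 11188 summits at coding gene ends. Their median pileup was 658, close to the 671 of the coding gene ends and above the 107 of all summits. Enrichment is pileup over local background, and the median background was 77.5 at the tRNA summits, 60.9 at the coding gene ends and 24.5 over all. Of the tRNA summits, 242 (77.8%) were above the median enrichment of all summits, but 50 (16.1%) above its 90th percentile, while 141 (45.3%) were above the 90th percentile of pileup. The −log10 q of the strongest summit was over 100 at 235 of the 325 open genes (72.3%) and under 10 at 4.

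Summits sat on or beside the gene. The strongest summit was inside the gene at 66 open genes (20.31%), at most 100 bp outside it at 168 (51.7%), more than 100 and up to 200 bp outside at 45 and farther out at 46. Its median distance to the gene midpoint was 98.5 bp, and it lay on the side of lower coordinates at 129 genes and of higher coordinates at 130, with strand not given for most. The called interval covered the whole gene at 309 open genes (95.1%). Summits inside the gene had a median pileup of 352, those up to 200 bp outside 753 and those farther out 1075.5. At the edge of the 500 bp limit, the nearest summits counted were 482 bp from TRQ-CTG1-3, 461 bp from TRV-AAC2-1 and 455 bp from TRT-AGT5-1, and the nearest not counted were 503 bp from TRC-GCA4-1, 512 bp from TRL-CAA6-1 and 513 bp from TRT-TGT2-1.

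**Figure D1:**
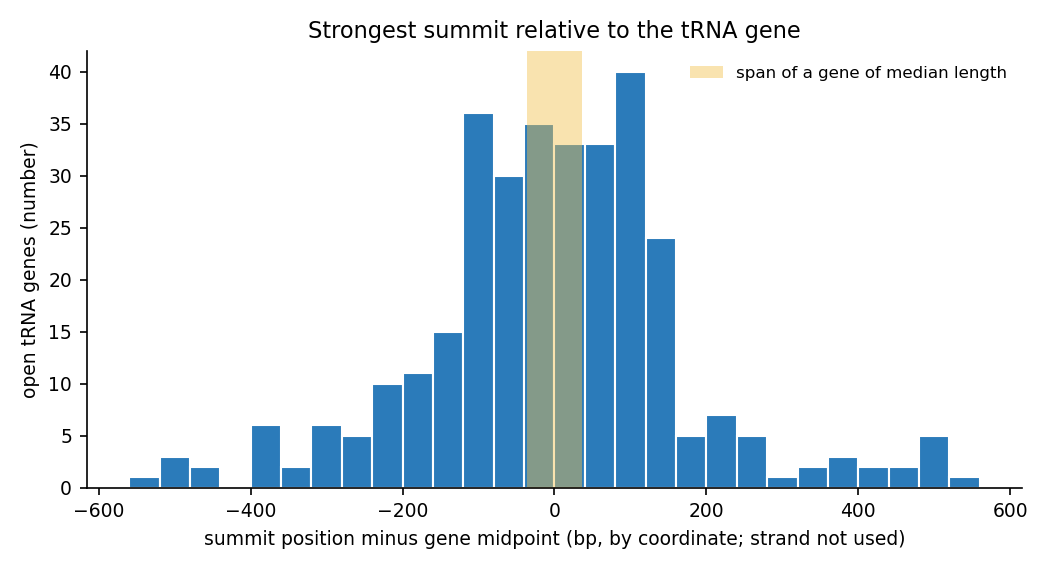
Position of the strongest summit of each of the 325 open tRNA genes, in bp from the gene midpoint along the chromosome (x axis) against the number of genes in bins (y axis). The shaded band is the span of a gene of median length (73 bp). Inside the gene lay 66 summits, and 168 lay at most 100 bp outside it. Of all summits outside the gene, 129 lay at lower and 130 at higher coordinates.

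The 100 closed genes differed in how far the next summit was. For 21 of them the nearest summit lay up to 1000 bp away, for 42 it lay beyond that and up to 5000 bp away, and for 37 it was farther, with a median of 3870.5 bp and a largest distance of 34141 bp. A kept interval overlapped 10 of the closed genes although no summit met the limit. Closed means that no summit was called in the pooled list, and how reads that fit several copies were treated is not given in the sources used here.

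Each standard amino acid, and selenocysteine, had at least 1 open gene. With initiator methionine as a class of its own, the open share ran from 3 of 7 tryptophan genes (42.9%) to 19 of 20 proline genes (95%). Glutamate (14 of 15), glutamine (17 of 19), histidine (8 of 9), serine (23 of 26) and initiator methionine (7 of 8), which serves to start translation, were also mostly open. Cysteine (16 of 29, 55.2%), phenylalanine (6 of 11, 54.5%), alanine (24 of 37, 64.9%) and leucine (22 of 32, 68.8%) had the lowest shares after tryptophan, apart from selenocysteine with 1 of 2. The exact intervals are wide at these numbers: 9.90% to 81.6% for tryptophan, 35.7% to 73.6% for cysteine and 75.1% to 99.9% for proline. The classes between them were glycine (25 of 30), threonine (17 of 20), aspartate and tyrosine (11 of 13 each), valine (23 of 29), asparagine (16 of 21), isoleucine (15 of 20), lysine (20 of 27), arginine (19 of 26) and elongator methionine (8 of 11).

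**Figure D2:**
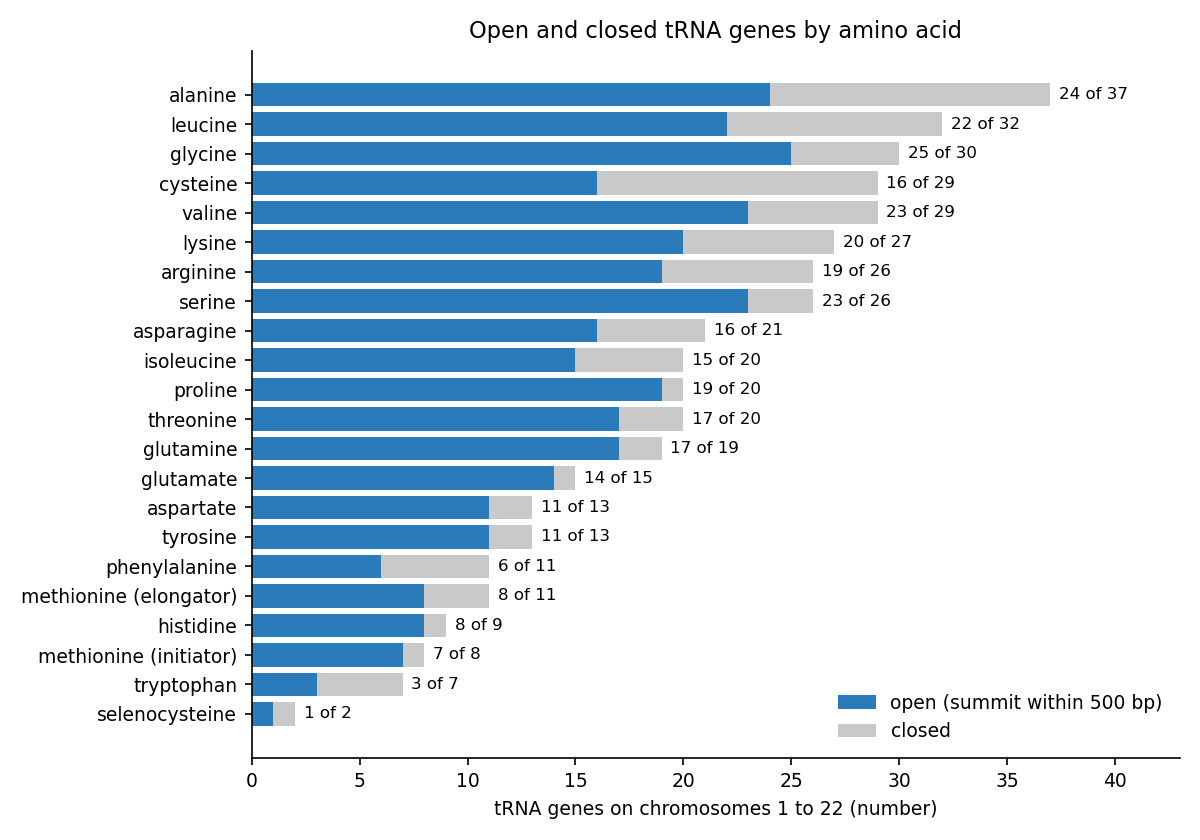
Number of tRNA genes on chromosomes 1 to 22 (x axis) that were open (blue, a summit within 500 bp) or closed (grey), for each amino acid (y axis), with the 2 methionine classes apart. Closed genes were most numerous among alanine and cysteine genes (13 each), and proline had 1 closed gene of 20.

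Closed genes of several of these classes lay together in 1 or 2 clusters, which were picked after the values were seen. Of 18 cysteine genes in the 2 clusters on chromosome 7, 8 were open, against 8 of 11 elsewhere. Of 6 phenylalanine genes in cluster 6 of chromosome 6, 1 was open, with 3.38-fold and a pileup of 71, whereas 5 of 5 elsewhere were open, at 8.08-fold to 14.8-fold and pileups of 742 to 2135. Alanine genes in clusters 3 and 6 of chromosome 6 were open in 14 of 25 cases and elsewhere in 10 of 12. Over all amino acids, 11 of 18 genes of that cluster 3 and 23 of 43 of that cluster 6 were open. The alanine share was thus near that of the clusters it lay in. Of 6 leucine genes in cluster 7 of chromosome 1, 1 was open, and of 26 elsewhere, 21. Over all amino acids, 24 of 31 genes of that cluster were open. Tryptophan showed no such split: its open genes TRW-CCA3-2, TRW-CCA1-1 and TRW-CCA2-1 lay on chromosomes 6 and 17, and so did 2 of its 4 closed genes.

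By anticodon, 47 of 48 classes had an open gene. The exception was tyrosine ATA, with the single gene TRY-ATA1-1, which was closed; the tyrosine GTA genes, which read both tyrosine codons, were open in 11 of 12 cases. Of the 37 anticodons with at least 5 genes, 4 had every gene open: glutamate CTC (8), isoleucine TAT (5), proline TGG (7) and serine GCT (8). The lowest shares were those of leucine CAG (4 of 9), arginine TCT (3 of 6) and tryptophan CCA (3 of 7). Lysine TTT genes were open in 11 of 13 cases (interval 54.6% to 98.1%) and lysine CTT genes in 9 of 14 (35.1% to 87.2%), and isoleucine TAT in 5 of 5 (47.8% to 100%) against AAT in 10 of 15 (38.4% to 88.2%), with intervals that overlap. Glycine CCC had a median enrichment of 12.1-fold over 7 open genes and glycine GCC one of 6.01-fold over 10. Valine TAC had 12.5-fold over 4 open genes and valine AAC 3.55-fold over 8.

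The class medians of enrichment ran from 3.56-fold (tryptophan) to 11.4-fold (asparagine), and single genes within a class also spread widely: those of leucine ran from 2.00-fold to 15.9-fold and those of isoleucine from 3.61-fold to 17.1-fold. Pileup gave another order, with the highest medians at glutamate (1980.5), aspartate (1366) and phenylalanine (1227) and the lowest at alanine (220) and glutamine (304). Aspartate had a high pileup with a median enrichment of 5.75-fold.

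**Figure D3:**
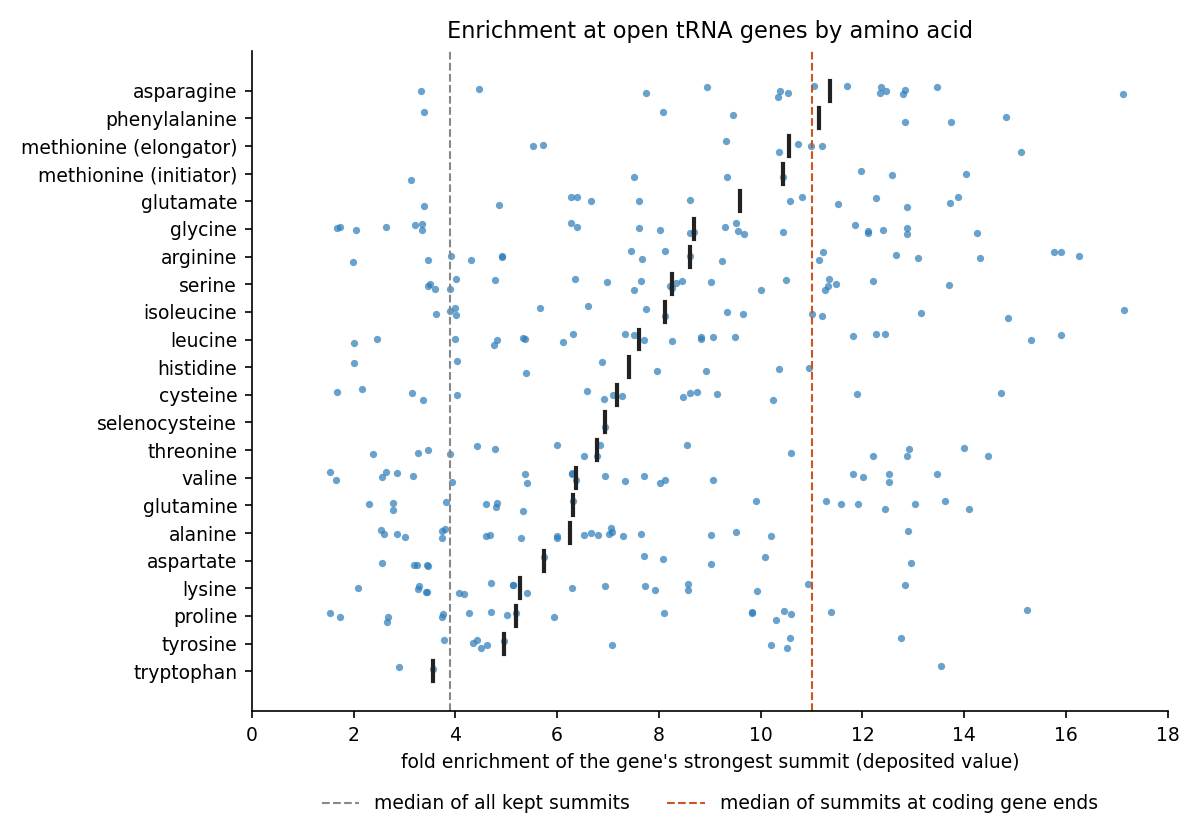
Deposited fold enrichment of the strongest summit (x axis) of each open tRNA gene (points), by amino acid (y axis, ordered by median), with the class median as a black bar. The grey line is the median of all kept summits (3.89) and the orange line that of summits at coding gene ends (11.0); the points of most classes spread across both lines.

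The strongest single genes came from many classes. By enrichment the first 10 were TRI-TAT2-2 (17.1-fold, pileup 922), TRN-GTT2-3 (17.1-fold, 1256), TRR-ACG2-1 (16.2-fold, 2823), TRL-CAG1-7 (15.9-fold, 1116), TRR-CCG2-1 (15.9-fold, 1702), TRR-TCG5-1 (15.8-fold, 566), TRL-TAA1-1 (15.3-fold, 2065), TRP-CGG2-1 (15.2-fold, 825), TRM-CAT4-2 (15.1-fold, 1048) and TRI-AAT6-1 (14.9-fold, 352). TRI-AAT6-1 stood over a background of 22.7 and TRR-ACG2-1 over one of 173, so a like enrichment covered pileups that differed widely. Of these 10, TRR-ACG2-1 lay nearest to a coding gene, 325 bp from an end of SACM1L. By pileup the first were TRR-TCG1-1 (4226, 13.1-fold, 249 bp from an end of POLG), TRE-CTC1-3 (4064, 7.61-fold), TRE-TTC3-1 (4038, 13.9-fold), TRE-CTC1-5 (4008, 8.62-fold) and TRT-AGT1-3 (3811, 14.5-fold). This list names 1 gene per summit: the glycine genes TRG-TCC2-3 and TRG-TCC2-5 shared the summits of TRE-CTC1-3 and TRE-CTC1-5. The weakest open genes by enrichment were TRP-TGG3-1, TRV-AAC2-1 and TRV-CAC6-1. The first and second of them shared a summit of 1.54-fold on chromosome 5, with a pileup of 360 over a background of 233. TRV-CAC6-1 had 1.66-fold and a pileup of 35. These 3 were picked after their values were seen.

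The selenocysteine gene TRU-TCA1-1 on chromosome 19 (45478601-45478687) was open, with 6.94-fold, a pileup of 868 and its summit 15 bp outside the gene. The other selenocysteine gene, TRU-TCA2-1 on chromosome 22 (44150657-44150740), was closed, and its nearest summit was 4367 bp away with a pileup of 42.

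Low isodecoder numbers were open more often. Of genes with isodecoder number 1 or 2, 192 of 216 were open (88.9%, interval 83.9% to 92.7%), against 91 of 126 (72.2%) for numbers 3 to 5 and 38 of 75 (50.7%, 38.9% to 62.4%) for higher numbers. The share was higher at numbers 1 and 2 than above in 16 of the 19 amino acid classes that had both, and lower in glutamate, proline and tyrosine. Among open genes the median pileup was 858 at numbers 1 and 2 and 301.5 above 5, while the median enrichments were 7.85-fold and 7.09-fold. In cysteine, 5 of 5 genes were open at numbers 1 and 2 and 11 of 24 above. TRC-GCA9 was an exception to that order, open at 4 of 4 copies. Of 8 genes with an unnumbered symbol, 4 were open.

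The 417 genes with numbered symbols fell into 255 isodecoder families, 186 of which (72.9%) had an open gene. Families of 1 gene were open in 134 of 200 cases (67%), and genes in families of 2 or more in 187 of 217 (86.2%). Of the 55 families with at least 2 genes, 34 were open at every copy, 18 were mixed and 3 were closed at every copy (TRI-AAT7, TRM-CAT3 and TRN-GTT9, with 2 genes each). In the 44 families with at least 2 open copies, the strongest copy exceeded the weakest by a median of 2.65-fold in enrichment, and by more than 3-fold in 19.

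Initiator methionine shows such a family copy by copy. Its isodecoder TRX-CAT1 had 14.04-fold (pileup 2021) at copy 1 on chromosome 1, and 12.6-fold (2867) at copy 8 on chromosome 17. On chromosome 6, copy 2 was closed, copy 3 had 7.51-fold (822), copy 4 had 3.12-fold (200), copy 5 had 9.34-fold (382), copy 6 had 11.97-fold (652) and copy 7 had 10.4-fold (414). The copies outside chromosome 6 thus had the highest pileups, but copy 1 lay 257 bp from an end of the coding gene ILF2. Open tRNA genes within 500 bp of a coding gene end had a median pileup of 1351, and those beyond it 661. Whether this bears on the copies was not tested. In the histidine family TRH-GTG1, 8 of 9 copies were open, at 2.00-fold to 11.0-fold and pileups of 114 to 1579, with copy 2 on chromosome 1 closed. Asparagine TRN-GTT2 was open at 8 of 8 copies (3.32-fold to 17.1-fold) and aspartate TRD-GTC2 at 10 of 11 (2.57-fold to 12.96-fold). Leucine TRL-CAG1 was the other extreme, open at 2 of 7 copies: copy 6 with 6.11-fold and copy 7 with 15.9-fold.

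Clusters were runs of at least 3 tRNA genes with gaps of at most 50 kb, and 28 of them held 305 genes. In them 226 genes were open (74.1%), and outside them 99 of 120 (82.5%). Open genes in clusters had a median enrichment of 6.304-fold and a median pileup of 615, and those outside 10.7-fold and 848. All genes were open in 8 clusters, the largest being cluster 2 of chromosome 5 (181164154-181222467) with 13 of 13, and in no cluster were all genes closed. Clusters are numbered along each chromosome. Of 277 pairs of neighbouring genes in clusters, 162 were both open, 30 both closed and 85 (30.7%) were 1 open and 1 closed gene, over a median gap of 4618 bp. Neighbours that shared 1 summit counted as both open, and 40 summits in all served more than 1 gene. The share expected for genes independent of each other was not computed, so these counts are a description only.

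**Figure D4:**
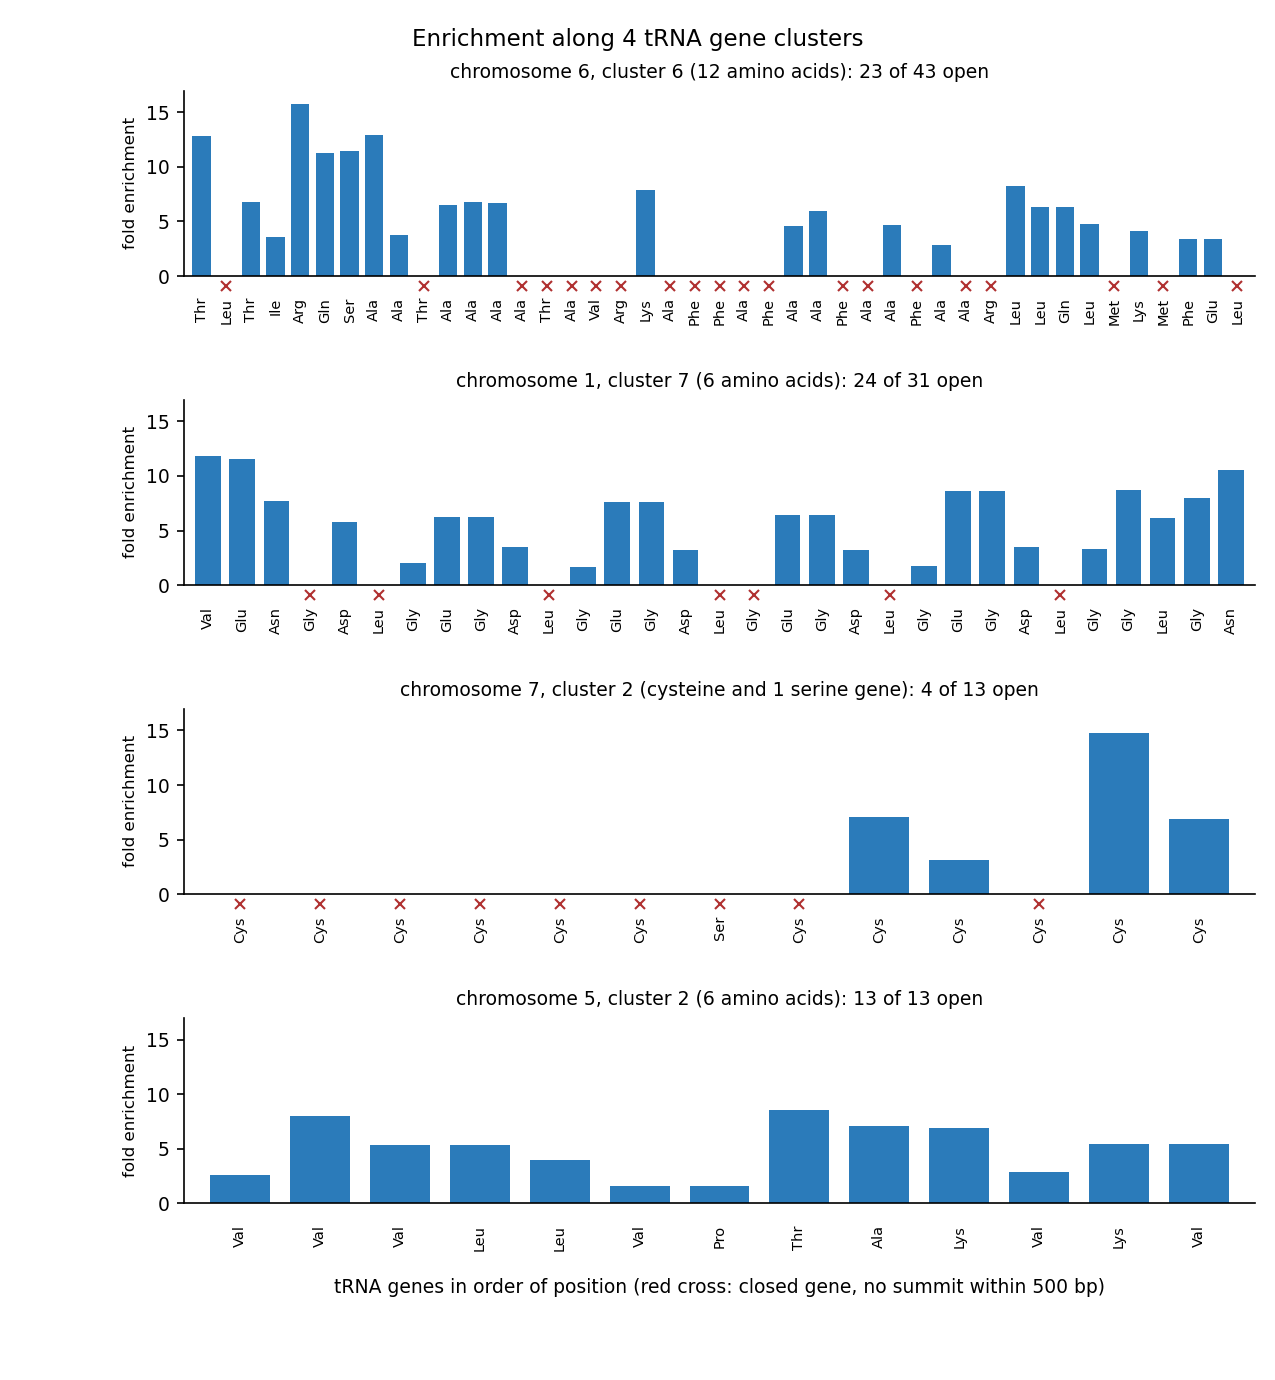
Deposited fold enrichment of the strongest summit (y axis) of each tRNA gene in order of position (x axis, labelled by amino acid) in 4 clusters, with closed genes as red crosses. Cluster 6 of chromosome 6 had 23 of 43 genes open, cluster 7 of chromosome 1 had 24 of 31 with a repeating pattern, cluster 2 of chromosome 7 had 4 of 13 with 8 closed genes in a row, and cluster 2 of chromosome 5 had 13 of 13.

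Cluster 6 of chromosome 6 (28474552-28989083) was the largest, with 43 genes for 12 amino acids, and 23 of them were open (53.5%, interval 37.7% to 68.8%). Its strongest gene was TRR-TCG5-1 (15.8-fold, pileup 566) and its weakest open gene TRA-AGC2-1 (2.86-fold, pileup 60). Closed genes came in runs, with 5 from TRA-AGC7-1 to TRR-CCG1-1 and 5 from TRA-TGC6-1 to TRF-GAA1-1, and the lysine gene TRK-TTT7-1 between these runs was open at 7.93-fold. The median pileup of its open genes was 141, against 705 over all open tRNA genes and 107 over all summits. Their median background was 20.32, which is the lowest in the whole list. Their enrichments thus rest on fewer fragments than at a typical open tRNA gene. Of the 23 open genes, 13 stood at that lowest background, with pileups of 60 to 168. So did 27 of the 311 tRNA summits (8.68%) and 34.4% of all 105599 summits.

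The other chromosome 6 clusters were open to different degrees. Cluster 5 (27478812-27795932) had 27 of 33 genes open, with 7 of 9 serine genes, 2 of 3 aspartate genes and 0 of 2 arginine genes, and ran from TRD-GTC2-7 (2.57-fold) to TRS-AGA2-3 (13.7-fold). Cluster 3 (26673362-26828299) had 11 of 18, in which 5 of 5 elongator methionine genes but 5 of 10 alanine genes were open, from TRA-AGC14-2 (3.00-fold) to TRM-CAT4-2 (15.1-fold). Cluster 4 had 16 of 18 open, cluster 2 had 12 of 13 and cluster 1 had 10 of 13. Over the whole stretch from cluster 1 to cluster 6 (26286526-28989083), 105 of 144 tRNA genes were open (72.9%), against 220 of 281 elsewhere (78.3%). The median pileup of the open genes was 272 there and 938 elsewhere, the background 42.0 and 138, and the enrichment 6.52-fold and 8.51-fold. The 29 summits at coding gene ends in the same stretch also had a lower median pileup than those elsewhere, 372 against 672. All 216 kept summits of the stretch, tRNA summits included, went the other way. Their median pileup was 221 against 107 elsewhere, and their median background 34.8 against 24.5.

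**Figure D5:**
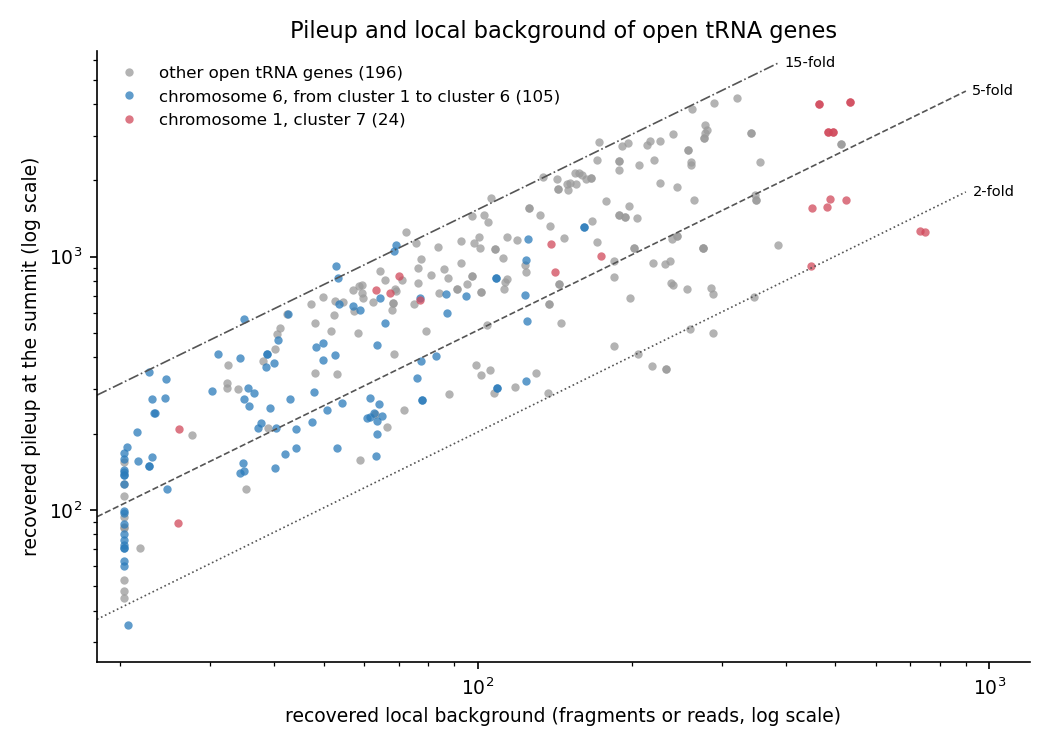
Recovered local background (x axis, log scale) against recovered pileup (y axis, log scale) of the strongest summit of each open tRNA gene, with lines of equal enrichment at 2-fold, 5-fold and 15-fold. Genes from cluster 1 to cluster 6 of chromosome 6 (105, blue) lie towards low background and pileup (medians 42.0 and 272), and genes of cluster 7 of chromosome 1 (red) reach the highest backgrounds, up to 748.

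Cluster 7 of chromosome 1 (161399700-161540314) held a tandem array. Within 161440825-161471205, 30.4 kb, copies of the same genes followed each other at a spacing of 7360 to 7431 bp: aspartate TRD-GTC2, leucine TRL-CAG1, glycine TRG-GCC1, glutamate TRE-CTC1 and glycine TRG-TCC2. The state of a gene was nearly the same in every repeat. Glutamate and glycine TRG-TCC2 shared a summit in each of 4 repeats, at 6.26-fold to 8.62-fold and pileups of 3102 to 4064. Aspartate was open in 5 of 5 repeats, at 3.19-fold to 5.75-fold. Glycine TRG-GCC1 was open in 3 of 4, at 1.68-fold to 2.06-fold. Leucine TRL-CAG1 was closed in 5 of 5, with its nearest summit 743 to 771 bp away in each.

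Copies of these same isodecoders outside the array had other values. TRL-CAG1-6 in the rest of the cluster was open at 6.11-fold, and TRL-CAG1-7 on chromosome 6 at 15.9-fold. TRG-GCC1-5 on chromosome 21 had 11.9-fold. Inside the array the local background was 174 to 748, with a median of 487, whereas it was 26.0 to 141 at the other open genes of the cluster. The part of reads that fit several repeats in these values was not tested.

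Cluster 2 of chromosome 7 (149546540-149707740), with 12 cysteine genes and 1 serine gene, was the least open of the clusters with more than 3 genes, at 4 of 13. Its first 8 genes, over 66.6 kb from TRC-GCA16-1 to TRC-GCA19-1, were all closed. The open ones were TRC-GCA9-3 (7.09-fold, pileup 346), TRC-GCA12-1 (3.15-fold, 71), TRC-GCA17-1 (14.7-fold, 1448) and TRC-GCA9-4 (6.92-fold, 197). TRC-GCA17-1 was the strongest cysteine gene of all, and a closed gene, TRC-GCA21-1, lay next to it. The neighbouring cluster 1 of chromosome 7 (149310190-149415209) had 4 of 6 cysteine genes open.

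Other large clusters were mostly open. Cluster 1 of chromosome 17 (8119155-8227064) had 15 of 18 genes open for 11 amino acids, from TRG-TCC3-1 (2.63-fold) to TRS-CGA1-1 (12.2-fold), and 1 summit there, with 3.89-fold and a pileup of 1078, served TRI-AAT4-1, TRS-AGA2-6 and TRT-AGT1-2 at once. Cluster 1 of chromosome 14 (20609336-20684087) had 13 of 14 open, and cluster 1 of chromosome 16 (3150674-3192060) had 12 of 14, with 7 of 7 proline genes and 3 of 5 lysine genes. In all, 271 of the 311 summits (87.1%) served 1 gene and 40 (12.9%) served 2 or 3, and 26 open genes had more than 1 summit. By chromosome, 111 of 154 tRNA genes were open on chromosome 6, 63 of 85 on chromosome 1 and 10 of 22 on chromosome 7, and the single genes on chromosomes 18 and 22 were closed.

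Genes for other short RNAs made by RNA polymerase III were open at 18 of 19 listed genes, beside the 76.5% of tRNA genes. Their median enrichment was 12.8-fold and their median pileup 1140.5. RPPH1, the RNA of ribonuclease P that trims the 5′ end of pre-tRNAs, had 15.5-fold with a coding gene end 224 bp away, and its pileup of 5709 was higher than at any tRNA gene on chromosomes 1 to 22. RN7SL1, the signal recognition particle RNA, had 15.8-fold (3110), RN7SK had 14.9-fold (2292) and the vault RNA gene VTRNA1-3 had 16.4-fold (1266). The Y RNA genes were weaker, from 2.55-fold (RNY4) to 6.78-fold (RNY5), and RNU6-7, a U6 gene, was closed. Of 17 genes for 5S ribosomal RNA, which use internal elements as tRNA genes do, 0 were open (0%, interval up to 19.5%). These 5S genes are near-identical repeats, so this count is uncertain.

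The coding genes of the pathway were nearly all marked. Over all 19866 coding genes of chromosomes 1 to 22, X and Y, a summit lay within 1000 bp of a gene end for 65.9%. For RNA polymerase III and its factors it did so for 28 of 29, with a median enrichment of 13.8-fold against 11.8-fold over all coding genes with a summit. BRF1, a TFIIIB subunit, had none, while BRF2, which serves genes with upstream promoters, had 13.9-fold. MAF1, the repressor of the polymerase, had 10.7-fold and a pileup of 3040, and the TFIIIC subunit gene GTF3C1 had 16.6-fold. For tRNA maturation and export it did so for 21 of 22, and RPP25 had a weak summit of 1.94-fold. All 20 listed cytosolic aminoacyl-tRNA synthetase genes had one, from FARSA (3.33-fold) to EPRS1 (18.2-fold). The leucine tRNA gene TRL-AAG2-4 lay 188 bp from an end of POLR3E, a polymerase subunit gene, and both were assigned the same summit, of 11.8-fold and pileup 3305.

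As a check of the labelled cell type, summits lay within 1000 bp of an end of 7 of 8 mesenchymal marker genes (THY1 without), 1 of 6 epithelial ones (EPCAM, at 2.11-fold with a pileup of 44), 2 of 5 blood ones and 0 of 3 neural ones, beside 65.9% of all coding genes. The blood markers were not weak: CD3E had 14.5-fold with a pileup of 671 and SPI1 had 8.44-fold with 515.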

How the data were processed

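ATAC-seq was done on 12 libraries of HT1080 cells. The authors deposited 1 peak list for all of them, with no column for a library, so no group was compared and no depth per library is known. Per the submitters' processing notes, which give no role or order, fastp 0.20.0, Bowtie2 2.4.3, SAMtools, deepTools 3.5.0, MACS2 2.2.7.1 and the build hg38 were used; parameters and the treatment of duplicates and of reads that fit several places are not given in the sources used here. Each deposited line holds a score (10 times the −log10 q, truncated, in 99.8% of lines), a fold enrichment, a −log10 p and a −log10 q, and the summit's offset in bp from the interval start, per the layout of the deposited file. The lowest −log10 q was 1.30.

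Summits on chromosomes 1 to 22 in intervals of at most 10 kb were matched to the RefSeq gene table (GRCh38.p14). Of 465 rows labelled tRNA, 22 are mitochondrial, 4 lie on X, and 14 have coordinates that do not run on with their chromosome and were left out, which leaves 425. Pileup and local background were solved from enrichment, taken as (pileup + 1)/(background + 1), and the Poisson −log10 p. The pileup came out whole within 0.05 in 99.96% of lines and at all 311 tRNA summits, and in a test on 5000 simulated lines 100% of pileups were recovered. The strongest summit stands for a gene. Python 3.11.15, numpy 2.4.6, scipy 1.17.1, pandas 2.3.3 and matplotlib 3.10.9 were used.

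The members, the gene lists and the markers were chosen with earlier results of these data known. Named genes are the 10 with the highest enrichment, the 5 with the highest pileup, selenocysteine genes and anticodons with 1 or 2 genes, the extremes of the 5 largest clusters, the 3 genes on either side of the distance limit, the strongest gene of each amino acid, tRNA genes on X, and a list of other RNA polymerase III genes. Genes named beside these are examples of a family, cluster or shared summit, chosen after their values were seen. Intervals are exact Clopper-Pearson at 95% and cover counting error only. Alternatives changed the window, the interval limit, the strength limit, the summits used, the cluster gap and the genes counted. The result for 1 gene of the maturation list is not reported here.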

Additional observations from a re-analysis of the deposited data

Results flagged for a closer look

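The 4 nuclear tRNA genes on chromosome X lie outside the chromosomes analysed and enter no count. One of them, the valine gene TRV-TAC1-2 (18674909-18674981), had a summit 39 bp away with an enrichment of 14.7-fold and a pileup of 418, in data that the comparisons did not use and for which no control library exists. The isoleucine genes TRI-GAT1-1, TRI-GAT1-2 and TRI-GAT1-3 had no summit within 500 bp. On chromosomes 1 to 22 the valine TAC genes were open at 4 of 4.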

How the results depend on the processing

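Of 119 values under other settings, 20 moved and 99 did not. A share or median moved where it left the 95% interval of the value reported, and a count where it changed by more than 1.5 times. The distance limit mattered most. With the summit required inside the gene, 16% of tRNA genes were open, with a median enrichment of 6.55-fold and a median pileup of 316, beside 2.33% of tRNA pseudogenes and 0.969% of other genes of at most 200 bp. Under that setting 32 anticodons had an open gene instead of 47, a fall just within the limit of 1.5 times and so not counted as moved. A window of 200 bp gave 68.2% of tRNA genes and 4.68% of those short genes, and one of 1000 bp gave 81.4% and 12.8%. With only the strongest summit of each interval, 68% of tRNA genes were open and the median enrichment was 8.25-fold. The short genes were open at 11.1% when any overlap of the interval counted and at 6.59% with a −log10 q of at least 10. The other 7 values that moved were open shares of single amino acids with the summit inside the gene. Under the window, overlap, interval length and −log10 q settings, the open share of tRNA genes stayed above those of tRNA pseudogenes and of short genes; under the others these classes were not recomputed. No paired analysis was possible because the list pools all libraries and has no sample columns, and for the same reason no library could be left out. Counting every gene-table row labelled chromosomes 1 to 22, or adding X, were chosen after seeing the data and moved no value.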

Other observations

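By the first base of the anticodon, which pairs with the third codon position, 70 of 95 tRNA genes with A (73.7%) were open, 95 of 125 with C (76%), 86 of 116 with G (74.1%) and 74 of 89 with T (83.1%), and the exact intervals of these shares overlap. A in this position is the base that the enzyme of ADAT2 and ADAT3 turns into inosine. Both genes had a summit near an end, at 16.9-fold for ADAT2 and 15.1-fold for ADAT3. Open genes with A had a median enrichment of 6.001-fold and a median pileup of 435, and those with G had 8.36-fold and 727.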
